A study of Mus musculus with 44 samples.

Results

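Goblet cells make the mucus that lines the intestine, and 10 genes of this cell type and of the assembly and release of its main mucin, Muc2, are described here in 2 mouse models of inflammatory bowel disease. The genes were chosen by name and not by their values: Muc2, Fcgbp, Clca1, Zg16, Tff3, Retnlb, Agr2, Sytl2, Spdef and Atoh1. They are 10 of the 29720 genes in the count tables, and all 10 passed the filter on low counts, which left 15317 genes in the T cell transfer model and 14370 in the TNFΔARE model.

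A goblet cell folds Muc2 in the endoplasmic reticulum, decorates it with O-linked sugars in the Golgi, packs it into granules and releases it, after which it swells into a gel. Muc2 is the gel-forming mucin of small and large intestine. Fcgbp, Clca1, Zg16 and Tff3 are secreted with it: Fcgbp is a large protein of the gel with von Willebrand D domains, Clca1 is a protease that acts on the mucin network, Zg16 is a lectin that binds Gram-positive bacteria, and Tff3 is a trefoil peptide of epithelial repair. Retnlb is a resistin-like protein that goblet cells secrete in response to type 2 cytokines and to bacterial colonization. Agr2 is a disulfide isomerase needed for Muc2 folding, and Sytl2 is an effector of Rab27 GTPases that tethers secretory granules. Atoh1 commits progenitors to the secretory lineage and Spdef drives the maturation of goblet cells.

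Poly-A RNA was sequenced with a directional kit in 44 libraries of intestine from C57BL/6 mice, with the distal colon and the ileum named as sources and not assigned to a model. In the transfer model all hosts were Rag1 null and so had no T or B cells of their own. Inflamed hosts had been given 400000 naive T cells and developed colitis within weeks 8 to 12, and non-inflamed hosts had been given 200000 bulk T cells, so the kind and the number of the cells differ together. In the TNFΔARE model, inflamed mice carried 1 Tnf allele without its AU-rich element (Tnf ΔARE/+) and non-inflamed mice were Tnf +/+ littermates, all 16 weeks of age. Each was treated with ATI-450, which inhibits the kinase MK2, at 3 mg/kg or with a methylcellulose and Tween20 vehicle, redosed 16 h later and sampled 90 min after the second dose, times taken from the treatment protocol, from which the series text differs on the duration. The groups held 6 inflamed ATI-450, 6 inflamed vehicle, 6 non-inflamed ATI-450 and 5 non-inflamed vehicle libraries in the transfer model, and 6, 5, 5 and 5 in the same order in the TNFΔARE model. Nothing beyond the replicate numbers says that the libraries of a group came from separate mice, so p-values measure the spread between libraries.

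In coordinates of GRCm38, Muc2 (ENSMUSG00000025515) lies at chr7:141690340-141754693 on the plus strand. The same chromosome holds Fcgbp (ENSMUSG00000047730, chr7:28071236-28120862, plus), Zg16 (ENSMUSG00000049350, chr7:127050156-127087328, minus) and Sytl2 (ENSMUSG00000030616, chr7:90302252-90410719, plus). Clca1 (ENSMUSG00000028255) lies at chr3:145003817-145032776 on the minus strand and Retnlb (ENSMUSG00000022650) at chr16:48816856-48818892 on the plus strand. Tff3 (ENSMUSG00000024029, chr17:31125306-31129646) and Spdef (ENSMUSG00000024215, chr17:27714352-27728955) are both on the minus strand. Agr2 (ENSMUSG00000020581) lies at chr12:35992907-36004087 and Atoh1 (ENSMUSG00000073043) at chr6:64729125-64731245, both plus. Zg16 overlaps Gm44939 and Gm22747 on the other strand, and the strand setting of the counting is not given in the sources used here.

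The promoters of Muc2 and Fcgbp, the gel-forming mucin and the gel protein whose levels are followed below, are shown because both hold CAGCTG, 6 bases of the kind that basic helix-loop-helix factors such as Atoh1 bind. The sequences are from RefSeq (GRCm38.p6), the 250 bases before the gene's start, and capitals mark the motif. RefSeq promoters were at hand for 5 of the 10 genes.
Muc2 promoter: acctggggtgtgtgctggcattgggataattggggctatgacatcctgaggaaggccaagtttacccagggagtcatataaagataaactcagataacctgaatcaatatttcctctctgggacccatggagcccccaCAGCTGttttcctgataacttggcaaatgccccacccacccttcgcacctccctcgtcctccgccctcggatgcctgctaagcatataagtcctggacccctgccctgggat
Fcgbp promoter: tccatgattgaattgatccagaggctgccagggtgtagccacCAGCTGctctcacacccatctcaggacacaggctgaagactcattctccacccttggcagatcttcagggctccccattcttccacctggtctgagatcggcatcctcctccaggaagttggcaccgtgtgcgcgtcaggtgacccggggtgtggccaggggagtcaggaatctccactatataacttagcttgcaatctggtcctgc
The Muc2 window is chr7:141690090-141690339 and the Fcgbp window chr7:28070986-28071235, both on the plus strand, and the motif starts 112 bases before the Muc2 start and 208 bases before the Fcgbp start. CAGCTG, searched on both strands, stands in 13% of 32851 RefSeq promoters of this length, CAGATG in 14.4% and TTTATG in 10.8%. CAGATG was in none of the 5 windows, and TTTATG was in those of Agr2 and Spdef. A match of letters is a description of the window and not a binding site.

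Transfer libraries held 5.95 to 22.3 M counts each and TNFΔARE libraries 5.80 to 13.1 M counts each (M, mega). Levels are given as counts per M library counts (CPM) after TMM scaling over the 44 libraries. The colonic genes Hoxb13 and Car1 were high in 22 of 23 transfer libraries, and Sis, an enzyme of small intestinal enterocytes, was at 785 CPM or more in all 21 TNFΔARE libraries. In inflamed vehicle replicate 3 of the transfer model Hoxb13 was at 0.0708 CPM, Car1 at 0.425 CPM and Sis at 6008 CPM, so it stands apart from its group. Sis was also at 182 CPM in inflamed vehicle replicate 1, against at most 1.16 CPM in the other 21 transfer libraries. Ctrb1, a pancreatic zymogen, was over 100 CPM in 5 transfer libraries, all of them inflamed: replicates 3, 5 and 6 with ATI-450 and replicates 1 and 5 with vehicle. Car1 was over 100 CPM in 5 inflamed TNFΔARE libraries, replicates 3 and 4 with ATI-450 and 1, 3 and 5 with vehicle. The epithelial gene Epcam was at 0 in 41 of the 44 libraries and at most 0.461 CPM in the others, while Krt8 ran from 3522 to 10385 CPM and Vil1 from 474 to 3869 CPM. Batches were spread unevenly over groups and stand as a term in the fits.

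Muc2 was abundant in all 8 groups. Its mean level was 820 ± 546 CPM in inflamed ATI-450, 369 ± 162 in inflamed vehicle, 1419 ± 1274 in non-inflamed ATI-450 and 860 ± 305 in non-inflamed vehicle libraries of the transfer model (SD, n = 6, 6, 6 and 5). In the TNFΔARE model it was 507 ± 114, 863 ± 451, 726 ± 291 and 964 ± 522 CPM in the same order of groups (SD, n = 6, 5, 5 and 5). The ranges of all 8 groups overlap. Muc5ac, Muc5b and Muc6, the gel-forming mucins of stomach and airways, were at 0.595 CPM or less in every library.

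Divided by exon length, taken as the union of the gene's exons, the secreted proteins Tff3 and Zg16 came first. In non-inflamed vehicle libraries of the transfer model Tff3 stood at 2067 ± 924 CPM per kb and Zg16 at 1828 ± 513, followed by Clca1 at 819 ± 298 and Agr2 at 639 ± 143 (SD, n = 5). Fcgbp was at 308 ± 83.4 CPM per kb, Muc2 at 121 ± 42.9 and Retnlb at 108 ± 108. The factors Atoh1 and Spdef were at 24.0 ± 7.09 and 17.6 ± 8.29 CPM per kb and Sytl2 at 2.13 ± 1.49. Within this order Tff3 and Zg16, Clca1 and Agr2, Muc2 and Retnlb, and Atoh1 and Spdef differ by less than their spread. In non-inflamed vehicle libraries of the TNFΔARE model Tff3 (3968 ± 2142 CPM per kb) and Zg16 (3360 ± 1679) again came first, and Retnlb, at 1.48 ± 1.11 CPM per kb, stood at the level of Sytl2 (1.43 ± 0.423).

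**Figure D1:**
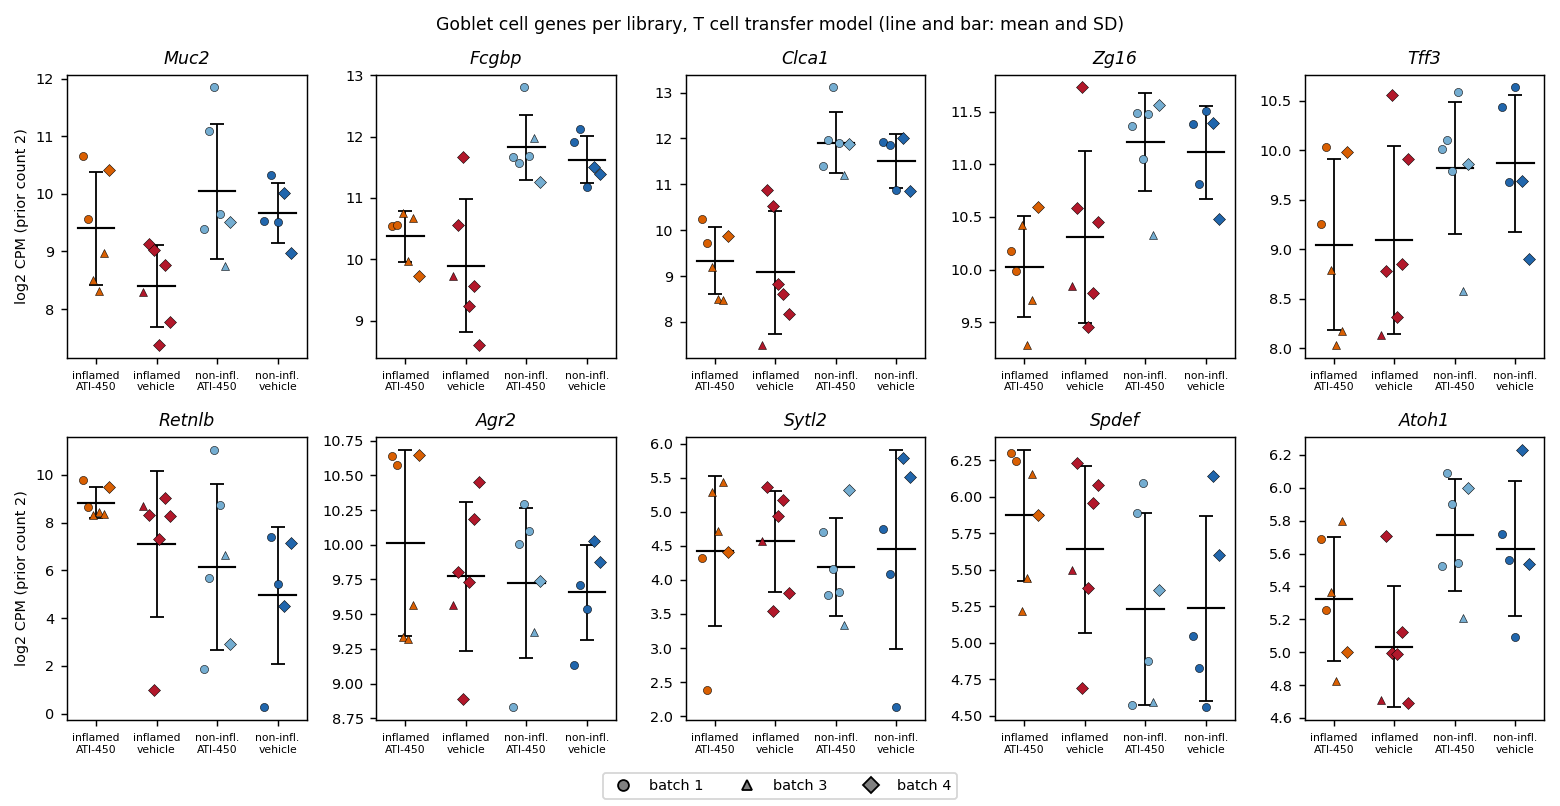
Levels of the 10 genes in the transfer model, as log2 CPM with a prior count of 2, 1 point per library with its batch as the shape, and the mean and SD of each group. Clca1 and Fcgbp are lower in all 6 inflamed ATI-450 libraries than in any non-inflamed ATI-450 library, and inflamed vehicle replicate 3 is the lowest point for Retnlb and the highest for Zg16 in its group. The share of all genes that separate in this way is not given.

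In the transfer model the genes were compared between inflamed and non-inflamed libraries under vehicle, groups that differ in colitis and in the T cells given. Clca1, the mucus protease, was the 1 gene of the 10 that passed the test, and it was lower. None of the 10 was higher. Of all genes tested, 12.3% passed in either direction, 5.34% of them lower and 6.95% higher, so 1 of 10 is near the background share. The median log2 fold change was -0.60 over the 10 genes and 0.05 over all 15317 genes, and 3 of the 10 had an unadjusted p under 0.05 (4451 of all genes).

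Clca1 had a lowest value of 180, a median of 422 and a highest value of 1887 CPM in inflamed vehicle libraries, against 3865, 3715, 1887, 4146 and 1861 CPM in non-inflamed vehicle libraries. Of the 6 inflamed libraries, 5 lay below every non-inflamed one and replicate 2, at 1887 CPM, overlapped the lowest of them. The mean was 778 ± 716 CPM in inflamed and 3095 ± 1125 CPM in non-inflamed libraries (SD, n = 6 and 5), a log2 fold change of -1.89 ± 0.50 (SE; edgeR's quasi-likelihood test, Benjamini-Hochberg adjusted p = 0.0196). Fewer goblet cells and less RNA per goblet cell cannot be told apart in whole tissue. As a share of the summed CPM of the pan-epithelial markers, Clca1 was at 4.15% ± 3.86 in inflamed and 17.6% ± 7.88 in non-inflamed libraries. In batch 4, which holds 5 inflamed and 2 non-inflamed libraries, the mean was 898 CPM against 3003 CPM, a ratio of 0.299, and the fit in that batch alone did not pass (-1.71, edgeR adjusted p = 0.607). Nor did the fit of the 2 groups alone (-1.74, adjusted p = 0.462). The call was lost without inflamed replicate 1, which carries pancreatic transcripts and Sis (-1.68, adjusted p = 0.0549), and without non-inflamed replicate 6 (-1.64, adjusted p = 0.136). Without the libraries over 100 CPM of Ctrb1 the edgeR value was -1.47 (adjusted p = 0.173).

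Markers of other cells moved with the groups. Of 8 neutrophil genes 6 were higher and none lower, and their summed level ran from 57.2 to 1769 CPM in inflamed and from 2.51 to 81.2 CPM in non-inflamed vehicle libraries. Of 7 smooth muscle genes 4 were lower, of 10 colonocyte genes 4 were lower, and of 7 enteroendocrine genes, markers of another secretory epithelial cell, 2 were lower. Of 11 small intestinal enterocyte genes 5 were higher and of 4 Paneth cell genes 3 were higher, and their sums peaked in inflamed replicate 3, at 53139 and 7165 CPM. The 9 tested pan-epithelial genes had none past the threshold, and their sum ran from 13747 to 26440 CPM in inflamed and from 16642 to 22762 CPM in non-inflamed libraries, with Epcam at or near 0. The 17 tested pancreatic genes also had none past the threshold, with sums from 13.2 to 38292 CPM in inflamed and at most 313 CPM in non-inflamed libraries. The part of these cells in the level of Clca1 was not tested.

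Fcgbp, the other abundant gel protein, did not pass under vehicle in the main edgeR fit, and did with limma-voom (-1.85, adjusted p = 0.000124). Its lowest, median and highest values were 388, 802 and 3266 CPM in inflamed libraries, against 3832, 4444, 2320, 2900 and 2687 CPM in non-inflamed libraries. The highest inflamed value belongs to replicate 3, the library with small intestinal transcripts, and the other 5 lie below every non-inflamed library. The log2 fold change was -1.14 ± 0.47 (edgeR, adjusted p = 0.114), and without replicate 3 it was -1.74 (adjusted p = 0.00265).

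The other members did not pass under vehicle in the main edgeR fit, and Zg16, Tff3 and Atoh1 among them passed with limma-voom. Muc2 ran from 165 to 559 CPM in inflamed libraries, median 376, against 739, 1290, 734, 1032 and 503 CPM in non-inflamed libraries, with 4 of 6 inflamed libraries below every non-inflamed one and a log2 fold change of -0.65 ± 0.48 (edgeR, adjusted p = 0.373, 95% interval -1.65 to 0.35). Zg16 differed by -0.58 ± 0.38, and without inflamed replicate 3 by -0.98 (edgeR, adjusted p = 0.0287). Tff3 differed by -0.18 ± 0.41. Agr2, the folding enzyme, differed by 0.28 ± 0.29, with levels of 475 to 1397 CPM in inflamed and 562 to 1041 CPM in non-inflamed libraries. Sytl2 differed by -0.68 ± 0.50. Of the factors, Atoh1 was at 25.7 to 52.0 CPM in inflamed and 34.0 to 75.0 CPM in non-inflamed libraries with a log2 fold change of -0.63 ± 0.24 (edgeR, adjusted p = 0.0893), and Spdef differed by 0.38 ± 0.34.

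Retnlb had the widest spread of the 10. It stood at 414, 316, 1.84, 158, 516 and 313 CPM in inflamed vehicle libraries of the transfer model, against 1.04, 169, 42.5, 22.5 and 142 CPM in non-inflamed vehicle libraries. The groups overlap, and the value of 1.84 CPM is that of replicate 3, whose transcripts are those of small intestine. The log2 fold change was 2.48 ± 1.43 (edgeR, adjusted p = 0.256, 95% interval -0.51 to 5.48). With limma-voom Retnlb passed (4.49, adjusted p = 0.0338).

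The same contrast among ATI-450 libraries put 2 of the 10 genes past the threshold, Clca1 and Fcgbp, both lower. The background was 22.6% of all genes in either direction, 12.9% higher and 9.71% lower, so 2 of 10 is near it. Markers of other cells moved with this contrast too: 8 of 8 neutrophil genes were higher, 5 of 7 smooth muscle, 4 of 10 colonocyte, 4 of 7 enteroendocrine and 2 of 4 tuft cell genes were lower, and their part in the results was not tested. Clca1 had a lowest, median and highest value of 359, 718 and 1207 CPM in inflamed ATI-450 libraries, against 2343, 3779 and 8849 CPM in non-inflamed ATI-450 libraries. The groups do not overlap, and the log2 fold change was -2.18 ± 0.47 (edgeR, adjusted p = 0.00289). The share of all genes without overlap is not given, for this contrast or for those below. Within batches 1, 3 and 4 the ratio of the means was 0.213, 0.187 and 0.249. These batches held 2, 3 and 1 inflamed and 4, 1 and 1 non-inflamed libraries. Without the libraries over 100 CPM of Ctrb1, 3 of the 6 inflamed ones, the log2 fold change was -2.32 (adjusted p = 0.022).

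Fcgbp had a lowest, median and highest value of 849, 1501 and 1730 CPM in inflamed ATI-450 libraries, against 2462, 3273 and 7132 CPM in non-inflamed ATI-450 libraries. These groups do not overlap either, and the log2 fold change was -1.41 ± 0.43 (edgeR, adjusted p = 0.0259). Its ratio of means was 0.359 in batch 1, 0.362 in batch 3, with 1 non-inflamed library, and 0.345 in batch 4, where each group had 1 library. The call was lost without inflamed replicate 1, 2 or 6 or non-inflamed replicate 5, and without the libraries over 100 CPM of Ctrb1 the value was -1.57 (adjusted p = 0.075). Zg16 had a lowest, median and highest value of 622, 1086 and 1541 CPM in inflamed ATI-450 libraries, against 1285, 2740 and 3029 CPM in non-inflamed ATI-450 libraries, and the groups overlap. It stood near the threshold, at -0.92 ± 0.35 (edgeR, adjusted p = 0.0629), and passed in 10 of 14 alternatives. Among them were DESeq2 (adjusted p = 0.0256) and limma-voom (adjusted p = 0.00047). Others were the replicate block in place of the batch term (edgeR, adjusted p = 0.00793) and leaving out the libraries over 100 CPM of Ctrb1 (-1.24, adjusted p = 0.0489). Spdef differed by 0.73 ± 0.33 (edgeR, adjusted p = 0.108), and passed on the authors' normalized signal (1.03, limma adjusted p = 0.0245) and with limma-voom (adjusted p = 0.0282). Agr2 (0.50 ± 0.26), Muc2 (-0.26 ± 0.45), Tff3 (-0.18 ± 0.36), Sytl2 (-0.08 ± 0.52), Atoh1 (-0.28 ± 0.23) and Retnlb (0.84 ± 1.42) did not pass in edgeR. With limma-voom Agr2 (0.55, adjusted p = 0.0318) and Retnlb (3.41, adjusted p = 0.047) did.

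**Figure D2:**
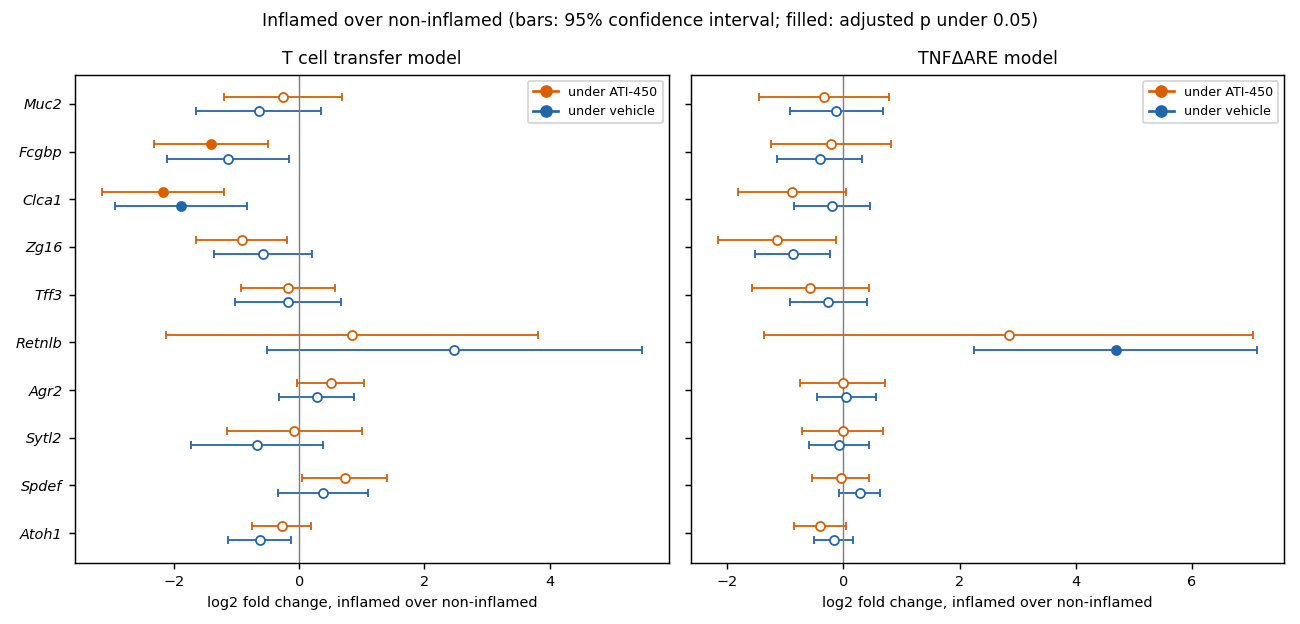
Log2 fold changes of inflamed over non-inflamed libraries for the 10 genes with 95% intervals, in the transfer model and in the TNFΔARE model, under ATI-450 and under vehicle, with filled points for an edgeR adjusted p under 0.05. Filled points are Clca1 under both treatments and Fcgbp under ATI-450 in the transfer model, and Retnlb under vehicle in the TNFΔARE model.

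Clca genes are a family of similar sequence, so reads can be split between copies and the level of Clca1 is uncertain to that extent. Under vehicle Clca3a1 (log2 fold change 1.10 ± 0.31, adjusted p = 0.0264) and Clca3a2 (1.42 ± 0.34, adjusted p = 0.0129) were higher in inflamed transfer libraries (edgeR). Both were also higher under ATI-450, Clca3a1 by 1.34 ± 0.28 (edgeR adjusted p = 0.00259) and Clca3a2 by 1.74 ± 0.31 (edgeR adjusted p = 0.00059). Clca3a1 was low, at 11.7 CPM or less in every library. Under ATI-450 Clca4b was higher (4.09 ± 1.25, adjusted p = 0.0253), at 2334 ± 640 CPM in inflamed and 278 ± 612 CPM in non-inflamed libraries (SD, n = 6 each), and so was Clca3b (1.26 ± 0.38, adjusted p = 0.0226). Under vehicle Clca4b stood at 2921 ± 1040 CPM in inflamed and 659 ± 975 CPM in non-inflamed libraries without passing (1.49 ± 1.28, edgeR adjusted p = 0.45).

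Genes of the mucin pathway around the 10 members were mostly not past the threshold in the transfer model. Under vehicle, 2 of 11 tested mucus proteins were higher and 1 lower, 1 of 17 folding genes was lower, 1 of 20 O-glycosylation genes was higher, 2 of 16 granule genes were lower, 2 of 16 lineage genes were lower, 1 of 16 other goblet markers was lower and 1 of 8 genes of type 2 and interleukin-22 input was higher. The list medians were -0.29, 0.30, -0.25, -0.06, -0.28, -0.26 and 0.27 in that order, beside 0.05 for all genes, of which 6.95% were called higher and 5.34% lower. Creb3l1, a membrane-bound transcription factor of secretory cells, averaged 97.8 CPM in inflamed and 200.2 CPM in non-inflamed libraries (-1.16 ± 0.32, adjusted p = 0.0233). The Rab27 effector Sytl1 averaged 24.2 against 64.4 CPM (-1.30 ± 0.31, adjusted p = 0.0113), and the GTPase Rab27b 41.3 against 57.9 CPM (-0.61 ± 0.17, adjusted p = 0.0258). The factor Foxa2 averaged 13.9 against 33.7 CPM (-1.17 ± 0.36, adjusted p = 0.0385), the corepressor Cbfa2t3 14.1 against 23.3 CPM (-0.88 ± 0.28, adjusted p = 0.0479), and the protease gene Hgfac 49.7 against 74.1 CPM (-0.76 ± 0.20, adjusted p = 0.0189). Il4ra, the receptor chain shared by interleukins 4 and 13, was higher, at 31.3 against 7.52 CPM (1.82 ± 0.35, adjusted p = 0.00513), while Il13 and Il4 were at 0.589 CPM or less in every library. Itln1, a lectin that also stands in the Paneth cell list, averaged 133 against 3.18 CPM (6.77 ± 1.82, adjusted p = 0.0206), and the summed Paneth markers reached 7165 CPM in replicate 3 with a group median of 81.9 CPM. The gastric trefoil gene Tff1 averaged 2.25 against 0.0399 CPM (adjusted p = 0.019) and the sialyltransferase gene St6galnac1 1.08 against 0.120 CPM (adjusted p = 0.00561), both low beside Tff3.

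Under ATI-450, with 12.9% of all genes called higher and 9.71% lower, 5 of 17 folding genes were higher in inflamed transfer libraries and none lower (list median 0.32). Among them Sdf2l1 averaged 104 CPM in inflamed and 50.3 CPM in non-inflamed libraries (1.13 ± 0.35, edgeR adjusted p = 0.0278) and Creld2 93.4 against 43.5 CPM (1.12 ± 0.28, adjusted p = 0.00881), both proteins of the endoplasmic reticulum that other secretory cells make too. Of 16 granule genes 4 were lower and none higher, led by the actin-severing protein Scin at 30.0 against 165 CPM (-2.06 ± 0.68, adjusted p = 0.0365), and Sytl1 was at 24.0 against 62.5 CPM (-1.05 ± 0.28, adjusted p = 0.0122). Of 11 mucus proteins 1 was higher and 3 were lower, with the kallikrein Klk1 at 66.2 against 444 CPM (-2.72 ± 0.60, edgeR adjusted p = 0.00351) and Tff1 at 3.45 CPM in inflamed libraries and 0 in every non-inflamed one (adjusted p = 0.00145). O-glycosylation had 2 of 20 higher and 2 lower, with the transferase Galnt7 at 117 against 180.0 CPM (-0.79 ± 0.27, edgeR adjusted p = 0.0419) and St6galnac1 at 1.70 against 0.117 CPM (3.75 ± 0.52, adjusted p = 0.000134). Lineage genes had 1 of 16 higher, Foxa3 (0.49 ± 0.17, adjusted p = 0.0482), and 1 lower, Klf4, a factor of goblet cell differentiation (-0.58 ± 0.16, adjusted p = 0.0125). Other goblet markers had 1 of 16 higher, Fxyd3 (0.95 ± 0.30, adjusted p = 0.0275), and 2 lower, among them Gsn (-1.05 ± 0.27, adjusted p = 0.0109). The type 2 and interleukin-22 list had 1 of 8 higher, Il4ra (1.79 ± 0.32, adjusted p = 0.00071), and 1 lower, Retnla, a relative of Retnlb, at 2.08 against 6.08 CPM (-1.75 ± 0.53, adjusted p = 0.0234). Pancreatic transcripts summed to between 21.3 and 11186 CPM in inflamed ATI-450 libraries and to between 54.3 and 241 CPM in non-inflamed ones. They were high in only part of the inflamed libraries: Ctrb1 was over 100 CPM in replicates 3, 5 and 6 and at most 0.0589 CPM in replicates 1, 2 and 4. The part of these transcripts in the list results was not tested.

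**Figure D3:**
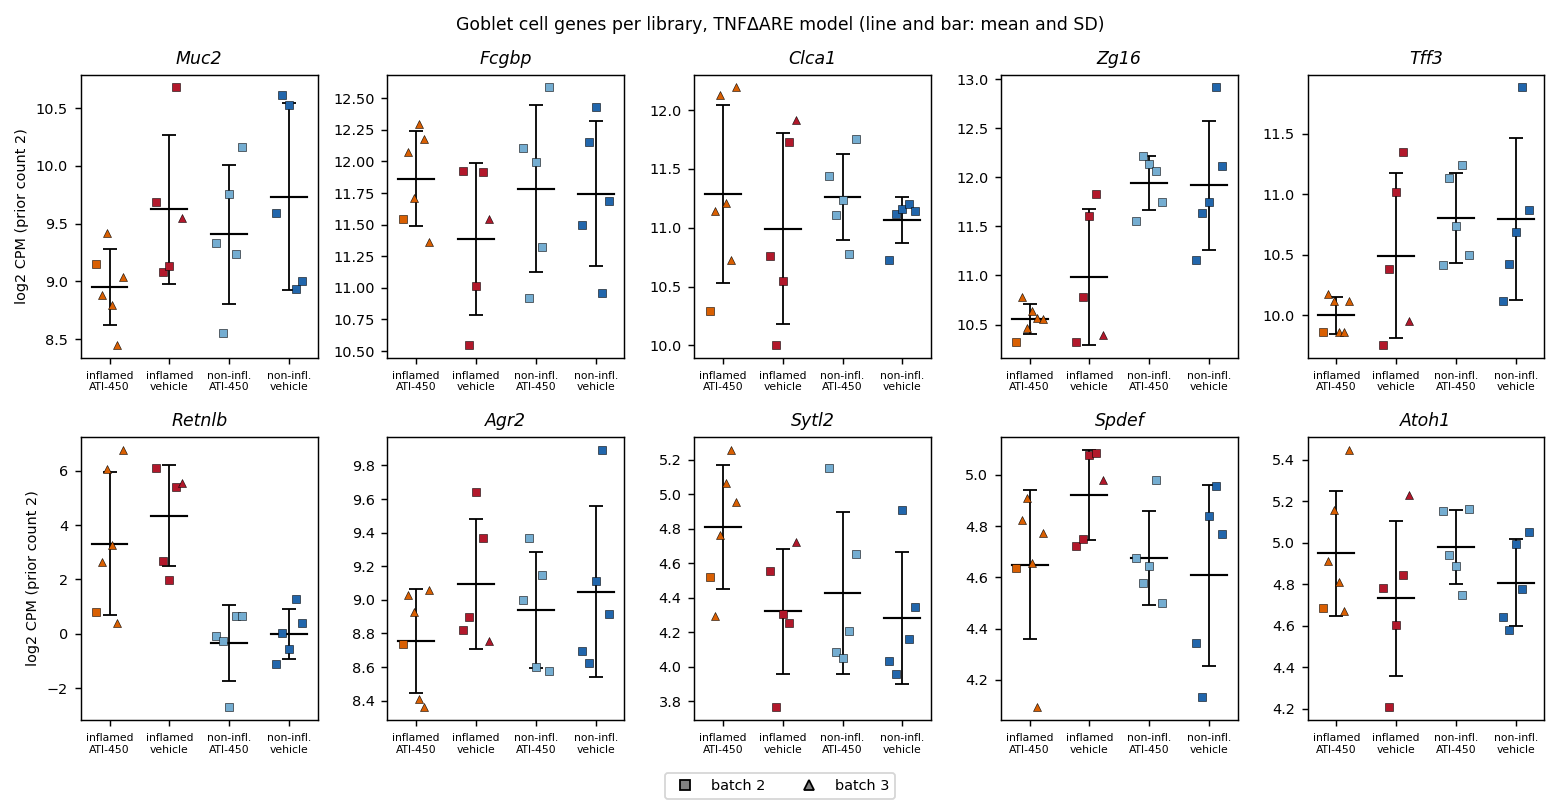
Levels of the 10 genes in the TNFΔARE model, drawn as for the transfer model. All 5 inflamed vehicle libraries lie above all 5 wild-type vehicle libraries for Retnlb, and all 6 inflamed ATI-450 libraries lie below the 5 wild-type ATI-450 libraries for Zg16 and for Tff3. Neither Zg16 nor Tff3 passed the main edgeR fit there, and the share of all genes that separate in this way is not given.

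In the TNFΔARE model under vehicle Retnlb was the 1 gene of the 10 past the threshold, and it was higher in TNFΔARE mice than in wild-type littermates. The background was 15.0% of all genes in either direction, 8.07% higher and 6.94% lower, and the median log2 fold change was -0.14 over the 10 genes and -0.02 over all 14370 genes. Retnlb stood at 68.2, 6.26, 3.84, 42.3 and 47.1 CPM in TNFΔARE vehicle libraries, against 0.304, 0.880, 0.521, 2.28 and 1.15 CPM in wild-type vehicle libraries. Every TNFΔARE library lay above every wild-type one, and the log2 fold change was 4.69 ± 1.16 (edgeR, adjusted p = 0.00857). In batch 2, with 4 TNFΔARE and 5 wild-type libraries, the means were 30.1 and 1.03 CPM, a ratio of 29.3. Under limma-voom with quality weights the change was 4.30 with an adjusted p of 0.288.

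Of the 5 TNFΔARE vehicle libraries, replicates 1, 3 and 5 also carried the colonocyte gene Car1, at 793, 446 and 279 CPM, where replicates 2 and 4 had 8.42 and 1.21 CPM and the wild-type vehicle libraries at most 2.75 CPM. Hoxb13, the other colonic gene, was at 0.231 CPM or less in all 10. Retnlb was 68.2, 3.84 and 47.1 CPM in the 3 libraries with more Car1 and 6.26 and 42.3 CPM in the 2 with less. Among TNFΔARE libraries given ATI-450, replicates 1 and 5, with Car1 at 0.491 and 0.166 CPM, had Retnlb at 1.57 and 1.16 CPM, within the range of wild-type libraries of both treatments (0 to 2.28 CPM). The other 4, with Car1 from 38.8 to 289 CPM, had Retnlb from 6.16 to 110 CPM. The colonocyte list as a whole went both ways under vehicle, with 4 of 10 genes higher and 2 lower, and its sum ran from 926 to 1723 CPM in TNFΔARE and from 1188 to 2984 CPM in wild-type libraries. Without the libraries over 100 CPM of Car1, 5 TNFΔARE libraries in the 2 treatments, Retnlb remained past the threshold at 4.62 (edgeR, adjusted p = 0.0407). That fit keeps only replicates 2 and 4 of the TNFΔARE vehicle group. Neutrophil markers, 6 of 7 tested higher and none lower, summed to between 140 and 321 CPM in TNFΔARE and between 6.11 and 11.7 CPM in wild-type vehicle libraries, and 11 of 14 small intestinal enterocyte markers were lower. The part of these cells and of colonic transcripts in the level of Retnlb was not tested. The neutrophil relative Retnlg was higher as well (3.98 ± 0.61, edgeR adjusted p = 0.000157), and reads shared between Retnl genes would make either level uncertain.

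**Figure D4:**
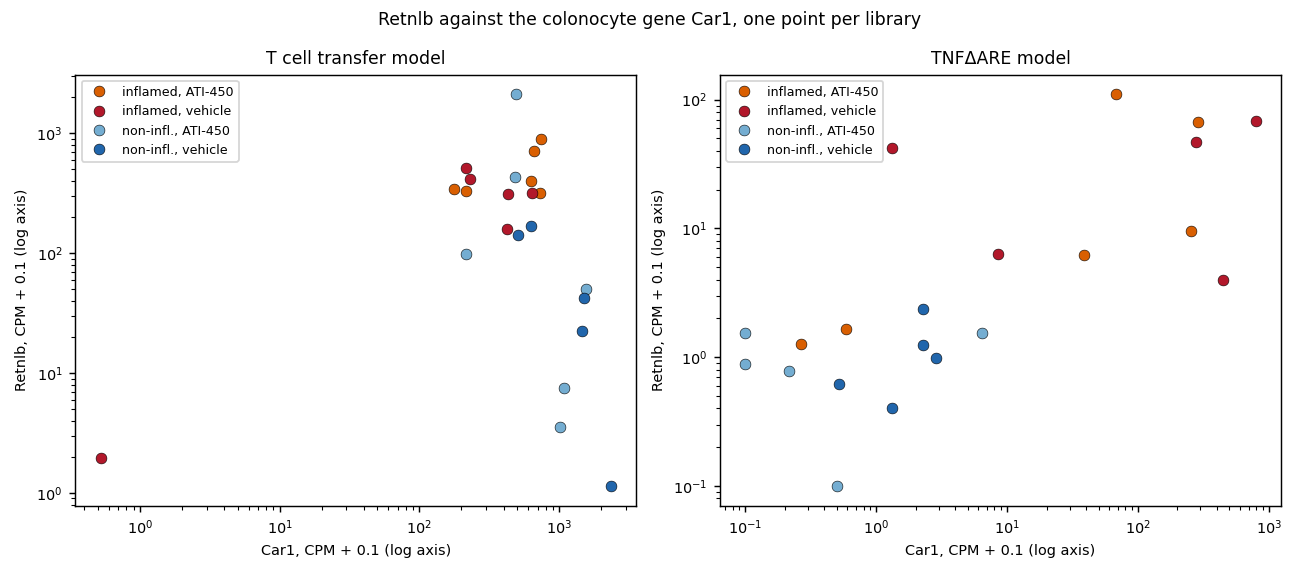
Retnlb against Car1, each as CPM plus 0.1 on log axes, 1 point per library, in the transfer and TNFΔARE models. In the TNFΔARE model the wild-type libraries stay at or below 2.28 CPM of Retnlb, and in the transfer model the lowest inflamed point, at 1.84 CPM of Retnlb, is the library with almost no Car1.

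Zg16, the bacteria-binding lectin, stood at 1276, 1755, 3118, 3633 and 1344 CPM in TNFΔARE vehicle libraries, against 2290, 3187, 3452, 7740 and 4448 CPM in wild-type vehicle libraries. The groups overlap, with 3 of 5 TNFΔARE libraries below every wild-type one, and the log2 fold change was -0.88 ± 0.31 (edgeR, adjusted p = 0.0663). The other members lay closer to no difference: Muc2 at -0.12 ± 0.39 (95% interval -0.93 to 0.69), Fcgbp at -0.41 ± 0.35, Clca1 at -0.20 ± 0.31, Tff3 at -0.26 ± 0.32, Agr2 at 0.05 ± 0.24, Sytl2 at -0.07 ± 0.25, Spdef at 0.29 ± 0.17 and Atoh1 at -0.16 ± 0.16. These intervals do not show that the genes were alike in the groups.

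Among ATI-450 libraries of the TNFΔARE model edgeR put none of the 10 genes past the threshold, 1 had an unadjusted p under 0.05, and DESeq2 and limma-voom also gave none. Without the batch term edgeR called 3, Zg16 (-1.38, adjusted p = 0.00113), Tff3 (-0.82, adjusted p = 0.0391) and Retnlb (5.21, adjusted p = 0.00265). The same 3 passed with the replicate block, which also leaves out the batch term, with Retnlb at 3.85 (edgeR, adjusted p = 0.0361). Zg16 passed with the 2 groups alone (-1.64, adjusted p = 0.00698). Of all genes, 11.6% passed, 7.23% higher and 4.37% lower. Zg16 ran from 1279 to 1754 CPM in TNFΔARE libraries, median 1515, against 3009, 4751, 4491, 4290 and 3443 CPM in wild-type libraries. The groups do not overlap. The log2 fold change was -1.15 ± 0.48 (edgeR, adjusted p = 0.148). Tff3 ran from 928 to 1158 CPM, median 1019, in TNFΔARE libraries, against 1366, 2245, 1710, 2423 and 1443 CPM in wild-type libraries, also without overlap, at -0.57 ± 0.48 (adjusted p = 0.566). Of these 6 TNFΔARE libraries 5 are from batch 3, which holds no wild-type library, so the batch term carries much of the contrast. Within batch 2 the 1 TNFΔARE library had 1279 CPM of Zg16 and 931 CPM of Tff3, against means of 3997 and 1837 CPM in 5 wild-type libraries. Without that library the edgeR value of Zg16 was -0.48 (adjusted p = 0.844). Retnlb stood at 1.57, 6.16, 67.1, 9.44, 1.16 and 110 CPM in TNFΔARE libraries, against 0.783, 0.682, 0, 1.43 and 1.44 CPM in wild-type libraries, with 5 of 6 above all wild-type ones and a log2 fold change of 2.85 ± 2.01 (adjusted p = 0.458).

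In the pathway lists of the TNFΔARE model under vehicle 1 of 8 mucus proteins was higher, 1 of 18 folding genes was higher, 2 of 19 O-glycosylation genes were higher and 3 lower, 3 of 15 granule genes were higher and 3 lower, 1 of 15 lineage genes was higher, 1 of 16 other goblet markers was higher, and 2 of 7 genes of type 2 and interleukin-22 input were higher and 1 lower, where 8.07% of all genes were called higher and 6.94% lower. The decoy receptor for interleukin 22, Il22ra2, averaged 89.2 CPM in TNFΔARE and 10.1 CPM in wild-type libraries (3.26 ± 0.51, edgeR adjusted p = 0.000211), and Il4ra 33.3 against 17.4 CPM (1.01 ± 0.16, adjusted p = 0.000193). Scin averaged 150 against 441 CPM (-1.91 ± 0.34, adjusted p = 0.000631). The glycosyltransferase genes B3galt5 (25.2 against 6.89 CPM, 1.93 ± 0.54, adjusted p = 0.0186) and St6galnac6 (21.9 against 7.58 CPM, adjusted p = 0.000989) were higher. Foxa1 (0.72 ± 0.22, adjusted p = 0.0358), Sval1 (1.33 ± 0.34, adjusted p = 0.0102), Pdia5 (0.51 ± 0.13, adjusted p = 0.0127) and Ttc39a (0.55 ± 0.15, adjusted p = 0.0184) were also higher. Under ATI-450 the mucus, folding, lineage and other goblet lists had no gene past the threshold, 1 O-glycosylation gene was higher and 2 lower, 3 granule genes were higher and 2 lower, and 2 type 2 and interleukin-22 genes were higher, where 7.23% of all genes were called higher and 4.37% lower. Among those named by the same rule were St6galnac6 (1.23 ± 0.39, edgeR adjusted p = 0.0477), the core 3 synthase B3gnt6 (-1.24 ± 0.31, adjusted p = 0.012), Scin (-2.37 ± 0.45, adjusted p = 0.00179), Il22ra2 (3.73 ± 0.65, adjusted p = 0.000891) and Il4ra (1.14 ± 0.21, adjusted p = 0.00149).

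Whether inflammation acted differently in the 2 models was tested as the difference of the 2 vehicle contrasts in a joint fit. None of the 10 genes passed in edgeR or in DESeq2. By edgeR 4.46% of all genes were past the threshold (2.83% positive and 1.63% negative), and 1 of the 10 had an unadjusted p under 0.05. That gene was Clca1, whose log2 fold change was -1.89 in the transfer and -0.20 in the TNFΔARE model. Its difference was -1.69 ± 0.61 in the joint fit (adjusted p = 0.107, 95% interval -2.93 to -0.45). Without the batch term the Clca1 difference passed (-2.06, edgeR adjusted p = 0.0435). For Retnlb the difference was -2.22 ± 1.86 (95% interval -5.98 to 1.55). The difference for Muc2 was -0.54 ± 0.64 and for Fcgbp -0.74 ± 0.60.

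The wild-type littermates of the TNFΔARE model and the non-inflamed hosts of the transfer model give the levels without inflammation under vehicle, and 3 of the 10 genes passed, where 32.0% of all genes did, 17.7% higher and 14.4% lower in the TNFΔARE-model libraries. Zg16 was higher in the wild-type TNFΔARE-model libraries, at 4223 ± 2111 CPM against 2297 ± 644 CPM in transfer libraries (SD, n = 5 each), with a log2 fold change of 0.89 ± 0.34 (edgeR, adjusted p = 0.041). That call was lost without transfer replicate 2 (adjusted p = 0.0927) or 7 (adjusted p = 0.106), without wild-type replicate 4 (0.58, adjusted p = 0.214) or 5 (adjusted p = 0.0682), with no count filter (adjusted p = 0.0585) and at a minimum fold change of 2. Atoh1 was lower, at 28.1 ± 4.09 against 51.0 ± 15.0 CPM (-0.85 ± 0.21, adjusted p = 0.00183), and every value in the TNFΔARE model, 24.8, 23.8, 31.7, 27.3 and 33.0 CPM, lay below the transfer values of 52.5, 47.1, 34.0, 75.0 and 46.3 CPM. Retnlb was lower, at 1.03 ± 0.773 against 75.3 ± 75.1 CPM (-6.23 ± 1.53, adjusted p = 0.00147), with the transfer value of 1.04 CPM inside the other group's range. Tff3 (0.95 ± 0.42, adjusted p = 0.0773), Spdef (-0.70 ± 0.28, adjusted p = 0.0515), Agr2 (-0.55 ± 0.29), Sytl2 (-0.57 ± 0.45), Clca1 (-0.51 ± 0.47), Fcgbp (0.19 ± 0.40) and Muc2 (0.18 ± 0.48) did not pass. No batch holds both groups, so tissue, batch, host and model cannot be told apart here.

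The surrounding lists in that contrast had 1 of 20 O-glycosylation genes higher in the TNFΔARE-model libraries and 12 lower, 2 of 16 granule genes higher and 10 lower, 1 of 16 lineage genes higher and 8 lower, 1 of 16 other goblet markers higher and 8 lower, 2 of 10 mucus proteins higher and 4 lower, 1 of 18 folding genes higher and 3 lower, and 4 of 8 type 2 and interleukin-22 genes higher and none lower. B3galt5 averaged 6.89 CPM in the TNFΔARE-model and 728 CPM in the transfer libraries (-6.74 ± 0.70, edgeR adjusted p = 1.54e-09) and St6galnac6 7.58 against 702 CPM (-6.51 ± 0.56, adjusted p = 3.83e-11). Foxa2 averaged 3.43 against 33.7 CPM (-3.27 ± 0.35, adjusted p = 1.97e-09), Creb3l1 28.3 against 200.2 CPM (-2.80 ± 0.31, adjusted p = 4.67e-09) and Sytl1 16.3 against 64.4 CPM (-1.97 ± 0.31, adjusted p = 3.55e-06). Itln1 averaged 3578 against 3.18 CPM (10.13 ± 1.66, adjusted p = 6.74e-06) and the alarmin Il33 17.1 against 6.50 CPM (1.40 ± 0.34, adjusted p = 0.00108). Il4ra was also higher (1.22 ± 0.29, edgeR adjusted p = 0.00117). Wfdc2, a small secreted protein, averaged 0.859 against 314 CPM (-8.48 ± 0.86, adjusted p = 8.11e-10), and the secreted phospholipase Pla2g10 7.39 against 100.1 CPM (-3.76 ± 0.39, adjusted p = 1.09e-09). Oit1 (-2.82 ± 0.33, adjusted p = 1.41e-08), the Golgi calcium pump Atp2c2 (-2.61 ± 0.28, adjusted p = 3.11e-09), Foxa1 (-1.59 ± 0.21, adjusted p = 2.27e-07) and the stress sensor Ern2 (-1.33 ± 0.48, adjusted p = 0.0299) were lower by edgeR. All 14 small intestinal enterocyte and all 8 Paneth cell markers were higher in the TNFΔARE-model libraries, and 7 of 10 colonocyte markers were lower.

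The effect of the MK2 inhibitor on the 10 genes was tested in each of the 4 settings, and none passed in any of them with edgeR, DESeq2 or limma-voom. In inflamed transfer mice 0.00653% of all genes, 1 gene of 15317, passed, and in non-inflamed transfer mice, TNFΔARE mice and wild-type littermates 0% did. At an unadjusted p under 0.05 there was 1 of the 10 in inflamed transfer mice and none in the other 3 settings, beside 467, 183, 191 and 373 of all genes in that order of settings.

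That gene was Muc2. Inflamed transfer mice given ATI-450 had a lowest, median and highest value of 316, 632 and 1617 CPM, against 165, 376 and 559 CPM in those given vehicle. The groups overlap, with 3 of 6 ATI-450 libraries above every vehicle library. The log2 fold change was 1.07 ± 0.45 (95% interval 0.13 to 2.02, edgeR unadjusted p = 0.0283, adjusted p = 0.998). In batch 4, with 1 ATI-450 and 5 vehicle libraries, the ratio was 3.58, and in batch 3, with 3 and 1, it was 1.25. The 2 inflamed ATI-450 libraries of batch 1, which holds no inflamed vehicle library, averaged 1189 CPM. In non-inflamed transfer mice Muc2 differed by 0.68 ± 0.46, and the test of the 2 inhibitor effects against each other gave 0.39 ± 0.60 (edgeR, adjusted p = 1). In TNFΔARE mice given ATI-450 Muc2 was at 567, 473, 684, 444, 349 and 525 CPM, against 823, 541, 563, 1640 and 748 CPM in those given vehicle, with 4 of 6 below every vehicle library and a log2 fold change of -0.62 ± 0.47 (adjusted p = 0.996). Treatment and batch nearly coincide there. The ratio was 0.636 in batch 2, with 1 ATI-450 and 4 vehicle libraries, and 0.662 in batch 3, with 5 and 1. In wild-type littermates Muc2 differed by -0.42 ± 0.37.

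The other members under the inhibitor had these ranges. In inflamed transfer mice the log2 fold changes of the 10 genes ran from -0.16 (Zg16) to 1.07 (Muc2), with Atoh1 at 0.48 ± 0.26, Spdef at 0.50 ± 0.36 and Agr2 at 0.48 ± 0.28. In TNFΔARE mice they ran from -2.01 ± 1.71 (Retnlb) to 0.26 ± 0.44 (Fcgbp), and in wild-type littermates from -0.42 (Muc2) to 0.22 ± 0.30 (Clca1). The Retnlb means of TNFΔARE mice were close, at 32.6 CPM with ATI-450 and 33.5 CPM with vehicle. In batch 2, with 1 ATI-450 and 4 vehicle libraries, the Retnlb ratio was 0.0521, and in batch 3, with 5 and 1, it was 0.825. In non-inflamed transfer mice the log2 fold changes ran from -0.22 ± 0.47 (Sytl2) to 2.17 ± 1.53 (Retnlb). Retnlb there stood at 3.45, 50.4, 2125, 430, 99.2 and 7.42 CPM with ATI-450, against 1.04, 169, 42.5, 22.5 and 142 CPM with vehicle, so the mean of the ATI-450 group rests on 1 library. No pathway list had a gene past the threshold in any of the 4 settings.

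**Figure D5:**
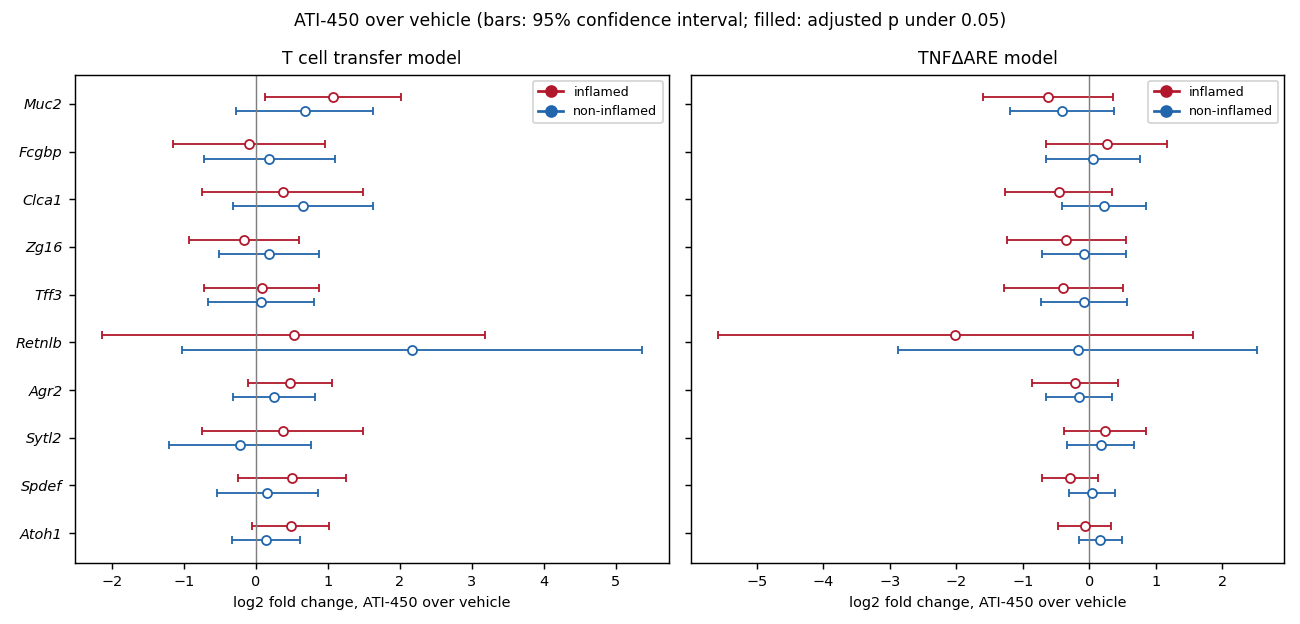
Log2 fold changes of ATI-450 over vehicle for the 10 genes with 95% intervals, in inflamed and non-inflamed mice of each model. No point is filled, since no gene had an edgeR adjusted p under 0.05, and the interval of Muc2 in inflamed transfer mice, from 0.13 to 2.02, lies above 0.

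Across libraries the 10 genes did not vary as a block. After subtracting group means from log2 CPM, Zg16 and Tff3 ran together in the 23 transfer libraries (Pearson r = 0.82, Spearman rho = 0.67) and in the 21 TNFΔARE libraries (r = 0.95, rho = 0.90), and r was 0.74 and 0.91 without the 2 libraries farthest from the median of Zg16. Agr2 and Spdef ran together at r = 0.72 and 0.70 (rho = 0.71 and 0.73), and Clca1 and Atoh1 at r = 0.55 and 0.87 (rho = 0.57 and 0.88). Muc2 ran with Clca1 at r = 0.69 in the transfer and 0.42 in the TNFΔARE libraries and with Fcgbp at 0.41 and 0.68, but with Zg16 at 0.41 and -0.19 and with Agr2 at 0.50 and -0.29. These are 45 pairs described without a test, and the points share batches and depth.

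Ranked by the lower of its 2 correlations with Muc2 over 13924 genes, Crebbp (0.59) and Muc3 (0.59), a membrane mucin, came first, followed by Zc3h11a (0.58), mt-Nd6 (0.57) and Scgb2b15 (0.56). The nearest of the 10 members were Clca1 at rank 83 (0.42) and Fcgbp at rank 85 (0.41), and Atoh1 was at rank 718 (0.23). The lower of the 2 correlations was below 0 for Spdef, Sytl2, Zg16, Tff3 and Agr2.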

How the data were processed

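Transcripts were quantified from poly-A selected libraries of mouse intestine. The deposited tables hold estimated counts per gene, and Salmon 0.14.1, DESeq2, mm10 and GRCm38 are named in the submitters' processing notes. The expected counts were deposited as whole numbers, without scaling, and entered the tests as they are. A second deposited table holds signal that the authors had normalized by a factor for each gene and library, and served only as an alternative with limma on log2(value + 1). The sources used here do not say whether counting used the strand.

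Groups came from the labels. edgeR 4.0.16 (R 4.3.3; TMM scaling, filterByExpr, quasi-likelihood test, Benjamini-Hochberg adjustment over all genes tested, threshold 0.05) was fitted per model to its 4 groups with batch as a term. The contrasts between models used all 44 libraries, with batch nested in model for the difference of inflammation effects and groups alone for the non-inflamed contrast. Levels are CPM, and log2 CPM used a prior count of 2. Alternatives used DESeq2 1.42.0 and limma 3.58.1, other scalings, filters and batch terms, and subsets of libraries. The replicate block, a term for the replicate number, took the place of the batch term. Errors are SD over libraries, or SE for fold changes. No molecular identifiers are described, so amplified copies of a molecule can be counted more than once. Named pathway genes are, per list and comparison, up to 2 with the largest absolute log2 fold change among those past the threshold with a mean of at least 1 CPM in either group, and 1 such gene is not reported here. The code was tested on simulated data. The members and lists were chosen with earlier results of these data known.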

Additional observations from a re-analysis of the deposited data

Results flagged for a closer look

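In 5 of the 80 sets of 1 gene in 1 group, the lowest library stood far from the nearest other one by Dixon's test at 95%, where chance flags about 1 in 20 groups. Retnlb was at 1.84 CPM in inflamed vehicle replicate 3 of the transfer model, the library with small intestinal transcripts. Clca1 was at 1690 CPM in wild-type vehicle replicate 1 of the TNFΔARE model. Sytl2 was at 5.07 CPM in inflamed ATI-450 replicate 2 of the transfer model. Spdef was at 16.9 CPM in TNFΔARE ATI-450 replicate 5, and Retnlb was at 0 in wild-type ATI-450 replicate 3.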

How the results depend on the processing

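Of the 10 genes, the number past the threshold was within 1.5 times the main count in all alternatives of the 4 inhibitor contrasts and both tests of the inhibitor effect between inflamed and non-inflamed mice, where it stayed 0. No called value changed sign. Among all 2918 gene values of the alternatives, called or not, 205 that were not called did.

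For inflammation in the transfer model under vehicle (main count 1) it was 6 with limma-voom and quality weights, 2 without the batch term, 2 with the replicate block (Clca1 and Fcgbp, with Fcgbp at an edgeR adjusted p = 0.000581), 3 without the library of the other region, and 0 in batch 4 alone, with the 2 groups alone, without libraries with pancreatic transcripts, without those over 100 CPM of Ctrb1, and without these or the other region. Limma-voom added Fcgbp (adjusted p = 0.000124), Zg16 (0.00373), Atoh1 (0.0167), Tff3 (0.0284) and Retnlb (0.0338) to Clca1. Leaving out 1 library gave 0 to 3: 0 without inflamed replicate 1 or non-inflamed replicate 6, 2 without inflamed replicate 2 and 3 without inflamed replicate 3. Under ATI-450 (main count 2) it was 6 with limma-voom, 1 without libraries with pancreatic transcripts, and 1 to 3 with 1 library left out. It was 3, adding Zg16, with DESeq2, without the batch term, with the replicate block, in batch 1 alone, with the 2 groups alone, without the other region, and without this or the libraries over 100 CPM of Ctrb1. On the authors' normalized signal it was 3, with Zg16 (limma, adjusted p = 0.0454) and Spdef (0.0245) gained and Fcgbp lost (-1.18, 0.0638). Clca1 under ATI-450 passed in all 14 alternatives and all 12 fits that leave out 1 library.

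In the TNFΔARE model under vehicle (main count 1) it was 2 with DESeq2, without the batch term and with the replicate block, each adding Zg16, 0 with limma-voom, and 1 to 2 with 1 library left out (2 without TNFΔARE replicate 4 or wild-type replicate 1). Retnlb passed in 10 of 11 alternatives. Under ATI-450 (main count 0) it was 3 without the batch term and with the replicate block (Retnlb, Tff3 and Zg16) and 1 with the 2 groups alone (Zg16). For the difference between models (main count 0) it was 1 without the batch term (Clca1), and 0 to 1 with 1 library left out (1 without transfer inflamed replicate 2). For the non-inflamed contrast between models (main count 3) it was 1 with a minimum fold change of 2, 5 without the libraries over 100 CPM of Ctrb1 or of the other region, and 2 to 5 with 1 library left out (5 without transfer replicate 4). The cause of these moves was not tested.

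The replicate numbers were not treated as pairs: in no comparison were all correlations between same-numbered libraries over 0.1. For ATI-450 against vehicle in non-inflamed transfer mice 3 of 4 were over 0.1 (median 0.33). Such correlations cannot show whether the mice were paired. The settings based on Ctrb1 were chosen after seeing the data. Alternatives within 1 batch were run only where a batch held enough libraries of both groups. Retnlb, at about 1 CPM in wild-type TNFΔARE-model libraries, rests on few counts per library.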
